A study of Mus musculus with 14 samples.

Results

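Ifi27, Ifi205, Ifitm1, Ifitm3, Bst2, Ifi35, Rsad2, Mx2, Oas1a and Trim25 are mouse genes that interferon induces and whose products act against viruses. They were chosen by name, from earlier results on the same arrays in which several of them were low, and every probe carrying one of these symbols or a synonym was taken. This gave 10 genes with 11 probes (Rsad2 has 2), out of 9928 named genes and 20355 probes. All 11 probes had enough values to be tested. RNA of cultured fibroblasts without a functional Ptdsr gene (Ptdsr-/-, current symbol Jmjd6) was hybridised against RNA of wild-type fibroblasts on 14 cDNA arrays, with both RNAs on every array. Replicates 1, 3, 4, 7, 8, 9 and 13 carried the knockout RNA in Cy5, and replicates 2, 5, 6, 10, 11, 12 and 14 carried it in Cy3. The submitters' design names 2 cultures, but which array came from which culture is not labelled, so every spread and p-value below is one between arrays and may be technical. The protocol mentions organs and a control animal pool, while both channel labels name fibroblasts. The labels give no strain, age or sex, and no interferon or other treatment.

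Each value is a log2 ratio, knockout over wild type, centred on each array's median, so a value of -1 means that the knockout signal was at 1/2 of the wild-type signal relative to the median probe. The direction of the deposited ratios is likely and not stated: an extreme value that seems to mark ratios with an empty denominator is positive on all 7 Cy5 arrays and negative on all 7 Cy3 arrays. Every sign below rests on that reading. If all ratios ran the other way, every sign would turn. A ratio carries no absolute level, so neither how strongly a gene was expressed nor the identity of the cells could be read from it. The Jmjd6 probe with values on all 14 arrays was below 0 on 12 of them, at -0.51 ± 1.14 (SD) with a limma adjusted p of 0.895, and at -0.77 ± 0.59 (SD, n = 13) without replicate 2, where it stood at 2.92. A second Jmjd6 probe, measured on 5 arrays and not tested, was above 0 on 4 of them with a mean of 0.27 ± 1.10 (SD). Where either lies on the transcript was not known, so they are no check of the knockout. In RNA from whole cultures, fewer cells of a kind and less RNA per cell cannot be told apart.

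As background, cells make interferons when sensors such as RIG-I and cGAS find foreign nucleic acid. Interferons bind surface receptors, Janus kinases start a signal to the nucleus, and a complex that includes STAT2 and IRF9 binds interferon-stimulated response elements (ISREs) in promoters. Gamma-activated sites (GAS) are a further element of interferon-induced promoters. Fibroblasts are a classic source of interferon beta and hold low levels of many of the induced genes without infection.

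ISRE and GAS letters were searched in promoters. The choice of genes did not use these letters, but it took interferon-induced genes, and both are elements of interferon-induced promoters. The shares against all windows therefore describe the choice in part. Of the 10 genes, 8 had a RefSeq window (build GRCm38.p6) reaching from 250 bases before to 50 bases after the annotated start. An ISRE core, searched on both strands as 2 GAAA blocks with 2 free bases between them, lay in 5 of the 8 windows (62.5%: Bst2, Ifi205, Ifitm3, Oas1a and Rsad2), against 3.44% of all 32851 windows. The shorter form GAAANNGAA, which every core also contains, lay in 6 of 8 (75%, with Trim25 added), against 8.56% of all windows. The GAS form TTCNNNGAA lay in 4 of 8 (50%: Bst2, Ifi35, Ifitm3 and Oas1a), against 8.30%. Other interferon-induced genes on the array, with 33 windows of 25 genes, held the core in 21.2%, the short form in 24.2% and the GAS form in 21.2%. These are shares of windows, so a gene with several windows counts more than once, while each of the 8 genes has 1 window. Counting only the 250 bases before the start, the shares were 50% for the core, 62.5% for the short form and 25% for the GAS form, against 18.2%, 21.2% and 18.2% of the windows of those other interferon-induced genes and 2.98%, 7.13% and 7.02% of all windows. The difference between the 2 sets of interferon-induced genes was not tested. A match is a string of letters and not a measured binding site. The 4 sequences that follow are the 150 bases before the start, in the gene's direction, of the genes whose core lies upstream of the start, and they are shown to let the matched elements be compared. Capitals mark the ISRE core, and all 4 genes lie on the minus strand.
Bst2: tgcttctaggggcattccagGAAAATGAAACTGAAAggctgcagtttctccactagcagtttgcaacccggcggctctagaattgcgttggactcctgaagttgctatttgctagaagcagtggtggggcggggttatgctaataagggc
Ifi205: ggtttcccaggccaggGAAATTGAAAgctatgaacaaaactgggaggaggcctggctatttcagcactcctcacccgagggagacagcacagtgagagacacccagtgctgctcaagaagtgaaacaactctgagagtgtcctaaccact
Oas1a: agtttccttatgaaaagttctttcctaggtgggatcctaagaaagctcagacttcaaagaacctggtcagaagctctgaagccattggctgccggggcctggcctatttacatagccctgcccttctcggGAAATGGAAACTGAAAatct
Rsad2: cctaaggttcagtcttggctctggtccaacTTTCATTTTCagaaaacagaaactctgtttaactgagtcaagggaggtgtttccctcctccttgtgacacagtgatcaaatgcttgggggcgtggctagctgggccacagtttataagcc
These stretches lie at chr8:71537473-71537622 for Bst2, chr1:174031756-174031905 for Ifi205, chr5:120907526-120907675 for Oas1a and chr12:26456453-26456602 for Rsad2. Bst2 and Oas1a each hold 2 overlapping cores that share a GAAA block, from -130 to -115 in Bst2 and from -20 to -5 in Oas1a. The GAS match of Bst2, from -136 to -128, overlaps the first of its cores. Ifi205 has 1 core from -134 to -125 and another after the start. The core of Rsad2, from -120 to -111, reads on the opposite strand and so appears as its reverse complement. In Ifitm3 both cores lie after the start, from 3 to 12 and from 20 to 29, and Ifitm1 had no match to any of the 3 forms.

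**Figure D1:**
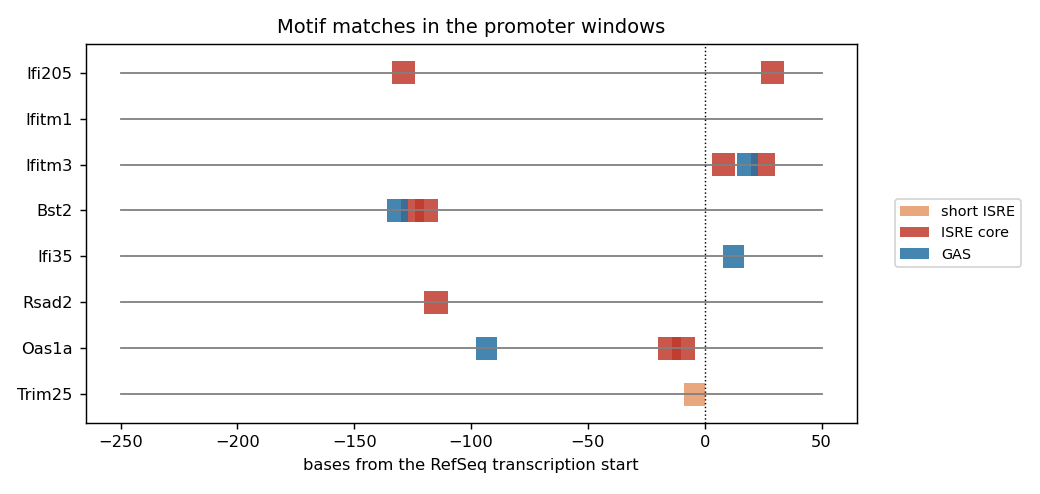
Position of each motif match relative to the annotated start (bases, 0 at the start) for the 8 genes with a promoter window, with the short form drawn where it is not part of a core. ISRE cores lie upstream in Bst2, Ifi205, Oas1a and Rsad2 and after the start in Ifitm3.

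Ifi27, Ifi205 and Ifitm3 were below 0 on every array that measured them, 41 values of 41. Ifi27 encodes a small membrane protein, located to mitochondria or the nuclear envelope, that interferon induces strongly. Its log2 ratio was lowest at -1.61, had a median of -1.03 and was highest at -0.34, with a mean of -1.01 ± 0.32 (SD, n = 14), which is 2.01-fold lower in knockout cells. The highest value came from replicate 8 and the lowest from replicate 12. Among all 18503 tested probes, 0.249% had a lower mean.

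Ifi205 belongs to the p200 family of the mouse, whose members bind DNA through a HIN domain. It ranged from -1.39 through a median of -0.73 to -0.47 and averaged -0.82 ± 0.28 (SD, n = 13), or 1.77-fold lower, with replicate 12 again lowest. The p200 genes are close paralogs, and how far the probe also captures their transcripts was not measured. Ifitm3 encodes a membrane protein that stops enveloped viruses from leaving endosomes by fusion. It ranged from -1.22 through a median of -0.64 to -0.18, with a mean of -0.70 ± 0.34 (SD, n = 14), or 1.62-fold lower. The 3 genes were among the steadiest probes of the array set: the residual SD was smaller in 2.63% of tested probes for Ifi27, 1.53% for Ifi205 and 2.59% for Ifitm3. They were singled out for values below 0 on every array, which a small spread favours, so this steadiness is part of that choice.

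Ifitm1 encodes a relative of Ifitm3 that acts at the cell surface, and its ratios were smaller and less uniform. They ranged from -0.76 through a median of -0.25 to 1.47, with a mean of -0.23 ± 0.60 (SD, n = 13), and 11 of 13 lay below 0. The highest value, on replicate 11, stood alone, and without that array the mean was -0.37 ± 0.33 (SD, n = 12). The Ifitm genes are alike in sequence, and how far each probe captures the other's transcript was not measured.

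Bst2, or tetherin, holds budding virus particles on the cell surface. Its values ranged from -1.79 through a median of -1.02 to 1.79 and averaged -0.78 ± 0.89 (SD, n = 14), or 1.72-fold lower. It was below 0 on 13 of 14 arrays, and the exception was again replicate 11, at 1.79. Without that array Bst2 averaged -0.98 ± 0.51 (SD, n = 13), close to Ifi27 but with a wider spread. Both replicate 11 values were the highest of their gene, whereas Ifi205 stood at -1.30 and Ifitm3 at -1.22 on the same array.

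Ifi35 encodes a leucine-zipper protein that pairs with Nmi, and Trim25 encodes the ubiquitin ligase that activates RIG-I. Ifi35 ranged from -0.88 through a median of -0.25 to 0.08 and averaged -0.31 ± 0.28 (SD, n = 14), below 0 on 12 arrays. Its shift was small on each array, and so was its spread: 1.16% of tested probes had a smaller residual SD. Trim25 had the same mean, -0.31 ± 0.63 (SD, n = 14), with a range from -2.20 through a median of -0.24 to 0.35. It was below 0 on 10 arrays and above 0 on 4. Replicate 2 alone set the low end of Trim25, and without it the mean was -0.16 ± 0.34 (SD, n = 13).

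Oas1a, Rsad2 and Mx2 encode enzymes that act on viral RNA or particles inside the cell, and their arrays disagreed in sign, as those of Trim25 did. Oas1a makes the 2-5A messenger that switches on RNase L. It ranged from -1.58 through a median of -0.26 to 2.34, with a mean of -0.19 ± 1.10 (SD, n = 12) and 7 of 12 values below 0, and without replicate 1, which held the highest value, the mean was -0.42 ± 0.79 (SD, n = 11). The mouse carries several Oas1 genes of similar sequence, so this ratio may include others.

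Mx2 encodes a dynamin-like GTPase. It ranged from -2.14 on replicate 13 through a median of -0.19 to 1.23 on replicate 4, with a mean of -0.31 ± 0.78 (SD, n = 13), and 10 of 13 values lay below 0. Without replicate 13 the mean was -0.16 ± 0.58 (SD, n = 12). Rsad2, or viperin, makes a chain-terminating nucleotide that stops viral polymerases, and its 2 probes did not give the same picture. Probe 2616 averaged -0.24 ± 0.98 (SD, n = 12), with a range from -2.52 through -0.36 to 1.16, and -0.04 ± 0.70 (SD, n = 11) without replicate 2, which held the lowest value. Probe 3904 averaged 0.08 ± 0.64 (SD, n = 13), with a range from -0.92 through 0 to 1.09. The probes had the same sign on 8 of the 12 arrays that measured both, and their difference (2616 minus 3904) was -0.26 ± 1.19 (SD). Averaged over probes, Rsad2 stood at -0.04 ± 0.60 (SD, n = 13), and leaving out single arrays moved that mean between -0.12 and 0.02, so its direction was not set.

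**Figure D2:**
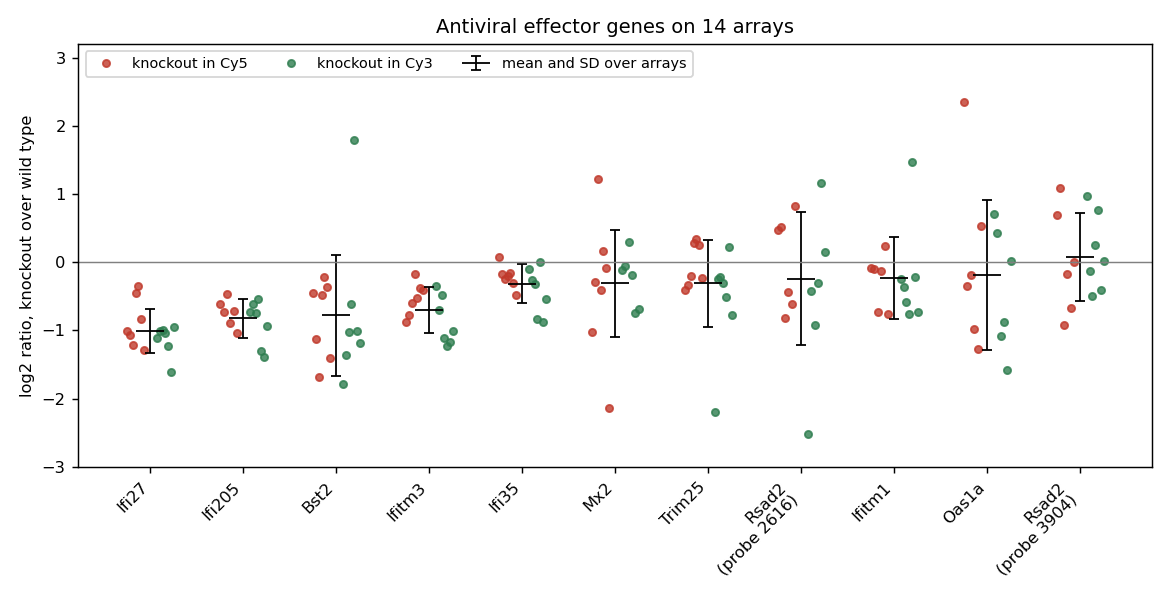
Log2 ratio of knockout over wild type (vertical axis) for each gene on each array, with colour marking the dye of the knockout RNA, bars marking the mean and SD. Ifi27, Ifi205 and Ifitm3 lie below 0 on every array, Bst2 on all but replicate 11, and Oas1a, Rsad2 and Mx2 scatter across 0.

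Ordered by mean, the genes ran Ifi27, Ifi205, Bst2, Ifitm3, Ifi35, Mx2, Trim25, Ifitm1, Oas1a and Rsad2, with the lowest first. Most neighbours in that order did not differ beyond the spread of their difference over shared arrays. Ifi27 minus Ifi205 was -0.19 ± 0.29 (SD, n = 13), with Ifi27 lower on 10 arrays. Bst2 minus Ifitm3 was -0.08 ± 1.07 (SD, n = 14), so the 2 cannot be ranked. The step from Ifitm3 to Ifi35 was the exception among the 9 neighbouring pairs: Ifitm3 minus Ifi35 was -0.38 ± 0.36 (SD, n = 14), with Ifitm3 lower on 12 arrays. In the order of means it lies between 4 genes at -0.70 or lower and 6 at -0.31 or nearer to 0. Only this pair was compared across the step, so a split of 4 genes from 6 was not shown.

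The genes' low means were part of the reason they were chosen, so the counts that follow describe the choice and test nothing. Over the 10 genes and all arrays, 111 of 134 values lay below 0 (82.8%), while over all named genes 63164 of 126233 did (50.0%). Outside the leading 3 genes it was 70 of 93 (75.3%). All 10 gene means lay below 0, with a median of -0.31, whereas the median over the 9268 tested genes was 0.002 and their 5th and 95th percentiles were -0.46 and 0.43. Among probes, limma called 2 of the 11 (Ifi27 and Ifi205) lower at an adjusted p below 0.05, where the background was 0.0324% of probes. With the Cy3 arrays turned it called 0 of the 11, and likewise 0 under robust and trended moderation. With probes averaged per gene, it called 3 of 10 (Ifitm3 added), where the background was 0.0863% of genes. With a random block for number range within dye, an estimated correlation left Ifi27 alone among the 11 probes (limma adjusted p of 0.205 for Ifi205). Of all 18503 probes, that fit called 4. By gene, the block gave a limma adjusted p of 0.0027 for Ifi27, 0.0411 for Ifi205 and 0.0752 for Ifitm3. For each of the other genes it was 0.9998. Calls of that fit over all genes were not counted, so no background share stands beside these values. An unadjusted p of 0.05 was passed by 5 of 10 genes downward and 0 upward, where 2.95% of all genes were lower and 2.41% were higher.

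**Figure D3:**
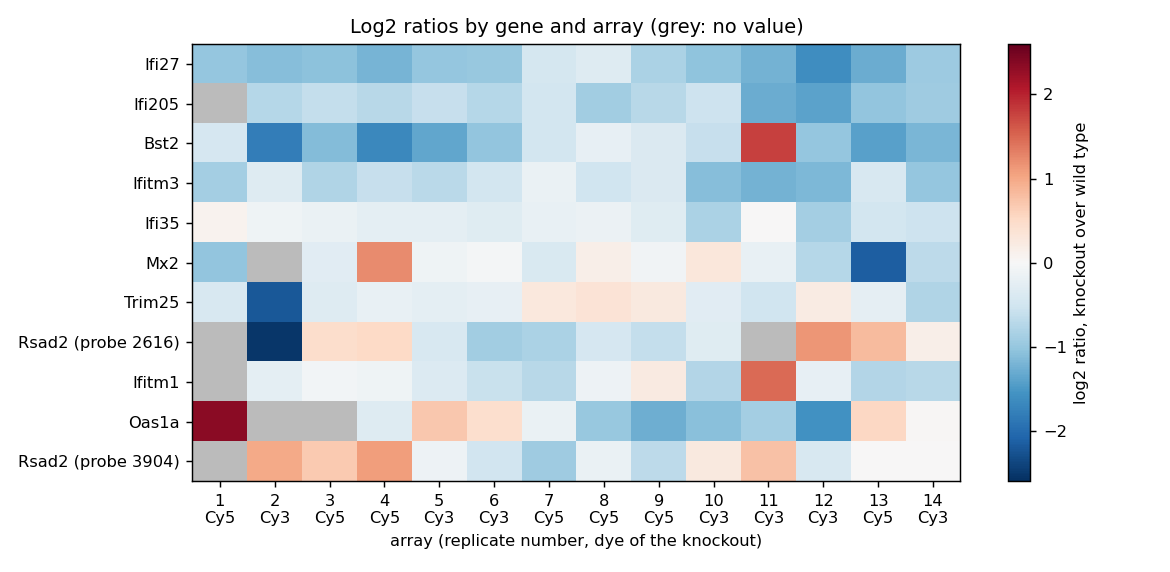
Log2 ratio of knockout over wild type by gene (down) and array (across), with blue for lower and red for higher in knockout and grey for missing values. The rows of Ifi27, Ifi205 and Ifitm3 are blue throughout, and replicate 11 is red for Bst2 and Ifitm1.

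Array by array, the median over the 10 genes was below 0 on all 14, from -0.94 on replicate 12 to -0.26 on replicate 8. The share of genes below 0 was highest on replicate 2, with 8 of 8 measured, and lowest on replicate 11, with 6 of 10. The gene at the low end changed with the array: Bst2 was lowest on replicates 3, 4, 5, 6 and 14, Oas1a on 8 and 9, and Mx2 on 1 and 13. On every array 5 genes or more lay below 0.

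Dye orientation was not used to choose the genes, so whether a ratio depended on the dye could be tested. Ifi27 averaged -0.89 ± 0.36 on Cy5 arrays and -1.13 ± 0.23 on Cy3 arrays (SD, n = 7 each). For Ifitm3 it was -0.53 ± 0.24 in Cy5 and -0.86 ± 0.36 in Cy3 (SD, n = 7 each), and for Ifi205 it was -0.74 ± 0.20 (SD, n = 6) in Cy5 and -0.89 ± 0.33 (SD, n = 7) in Cy3. Each of the 3 was below 0 in both orientations. Bst2 averaged -0.82 ± 0.58 in Cy5 and -0.74 ± 1.17 in Cy3 (SD, n = 7 each), while Oas1a averaged 0.02 ± 1.31 in Cy5 and -0.40 ± 0.91 in Cy3 (SD, n = 6 each). Cy5 and Cy3 means were both below 0 for 9 of the 10 genes. In limma's fit the dye term passed an adjusted p of 0.05 for 0 of the 11 probes, against 0.0054% of all probes, and an unadjusted p of 0.05 for 0 of 11, against 7.66% of all probes. The widest gap was in Trim25, whose Cy5 mean was -0.04 ± 0.32 and Cy3 mean -0.57 ± 0.78 (SD, n = 7 each), a difference of 0.53 with a standard error of 0.34 and a limma adjusted p of 0.737. A p that misses the threshold does not show that the dyes gave the same ratio.

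Arrays were also compared by replicate number, 7 to 12 against 1 to 6. The labels give these ranges no meaning, and the split was made after values had been seen. Oas1a averaged -0.997 ± 0.47 in replicates 7 to 12, with 6 of 6 values below 0, against 0.79 ± 1.13 in replicates 1 to 6, with 1 of 4 below 0 (SD). In a limma fit over 16633 probes the difference of 7 to 12 minus 1 to 6 was -1.78 with a standard error of 0.48, an unadjusted p of 0.00337 and an adjusted p of 0.501. Bst2 ran the other way, with -0.15 ± 0.99 in replicates 7 to 12 and -1.24 ± 0.49 in replicates 1 to 6 (SD, n = 6 each), a difference of 1.09 with a standard error of 0.44 and a limma adjusted p of 0.747. Without replicate 11 the Bst2 difference was 0.67, with a limma adjusted p of 0.827. Trim25 averaged 0.05 ± 0.36 in replicates 7 to 12 and -0.60 ± 0.79 in replicates 1 to 6 (SD, n = 6 each), a difference of 0.65 with a limma adjusted p of 0.808. The adjusted threshold was passed by 0 of 11 probes, against 0.00601% of all probes. At an unadjusted p of 0.05 Oas1a and Bst2 were the 2 of 11 that passed, against 6.29% of all probes. With single arrays left out, limma's unadjusted p lay between 0.000251 and 0.0108 for Oas1a and between 0.0140 and 0.0599 for Bst2.

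Ifi27 differed between the number ranges in spread more than in mean. Its mean was -0.92 ± 0.48 in replicates 7 to 12 and -1.07 ± 0.08 in replicates 1 to 6 (SD, n = 6 each). Ifi205 had -0.89 ± 0.39 (n = 6) in replicates 7 to 12 and -0.68 ± 0.07 (n = 5) in replicates 1 to 6 (SD). For Ifitm3 it was -0.76 ± 0.46 in replicates 7 to 12 and -0.63 ± 0.20 in replicates 1 to 6 (SD, n = 6 each). In replicates 13 and 14 the mean was -1.12 for Ifi27, -0.98 for Ifi205 and -0.71 for Ifitm3. In all 3 genes the arrays numbered 7 to 12 were the more scattered, and the difference in spread was not tested.

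**Figure D4:**
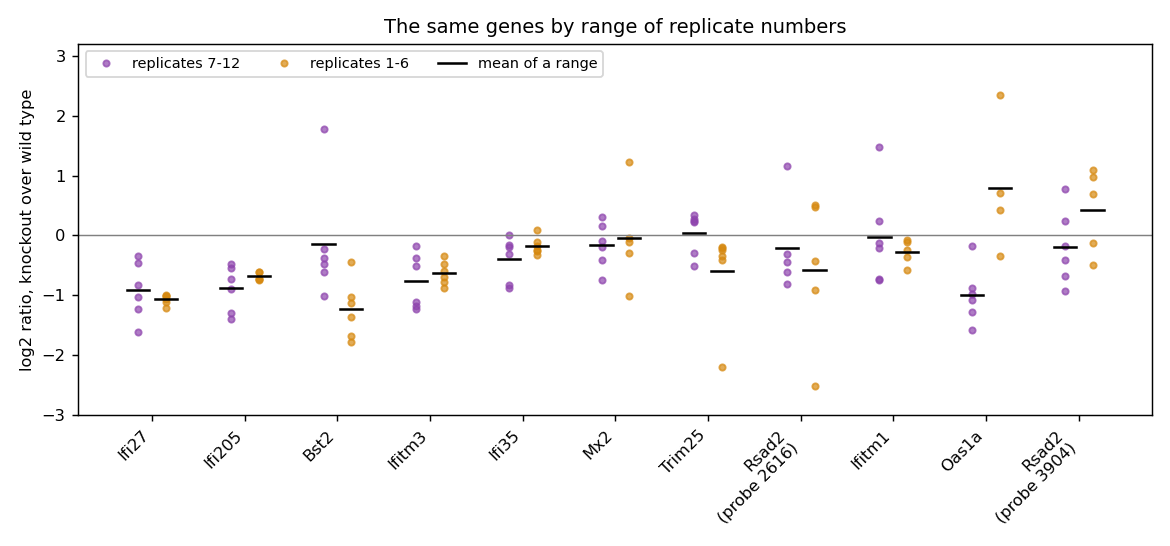
Log2 ratio of knockout over wild type by gene, with arrays split into replicates 7 to 12 and 1 to 6 and bars marking their means. Oas1a is below 0 on 6 of 6 arrays of 7 to 12 and on 1 of 4 arrays of 1 to 6, while Ifi27, Ifi205 and Ifitm3 are below 0 on every array shown.

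Across arrays the 10 genes did not move as a block. Of their 45 pairwise Pearson correlations 26 were above 0, with a median of 0.09, and without replicates 2 and 11 the median was 0.13. Ifi27, Ifi205 and Ifitm3 were positively correlated with each other over all shared arrays, but not within replicates 1 to 6 for the pairs with Ifitm3. The coefficients over shared arrays were 0.55 for Ifi27 with Ifi205 (Spearman 0.49), 0.52 for Ifi27 with Ifitm3 (Spearman 0.41) and 0.53 for Ifi205 with Ifitm3 (Spearman 0.37). The pair Ifi27 and Ifitm3 had 0.83 within replicates 7 to 12 and -0.31 within replicates 1 to 6 (n = 6 each). The pair Ifi205 and Ifitm3 had 0.66 within replicates 7 to 12 (n = 6) and -0.86 within replicates 1 to 6 (n = 5). The highest coefficient, 0.74 for Ifitm1 with Bst2 (Spearman 0.32), was 0.15 without replicates 2 and 11. The lowest was -0.63, for Ifitm3 with Rsad2.

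Array profiles were compared over 4489 named probes with values on all 14 arrays, with the probes of the 10 genes left out, so Ifitm3 could not appear. The probes most like Ifi27 among them were on none of the interferon lists. They were Selenok (Pearson 0.95), Rnaset2b (0.94), Rps9 (0.93), Eef1g (0.91), Maea (0.90), Npm1 (0.89), Xbp1 (0.89) and Igf2r (0.88). Their mean log2 ratios lay between -0.10 and 0.25, so the likeness was in how arrays deviated and not in the shift itself. Rps9 encodes a ribosomal protein, Eef1g a translation elongation factor subunit and Npm1 a nucleolar chaperone. For the median over the 10 genes, the most alike were Sbno2 (0.79), Pex11g (0.78), Rars (0.73), Vit (0.72), Mark2 (0.71), Emc10 (0.70), Syn1 (0.70) and Psd3 (0.70).

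Array-wide shifts moved with these profiles. Among 1670 probes with values on all 14 arrays and no ratio of small whole numbers, the array medians after centring ran from -0.41 to 0.34. Across the arrays with a value, these medians had a Pearson correlation of 0.79 with Ifitm3, 0.63 with Ifi27 and 0.56 with Ifi205. It was 0.22 with Oas1a and 0.20 with Ifi35. For the other probes it was below 0, from -0.20 for Mx2 to -0.72 for Rsad2 probe 2616. Both sides share array and centring. Centring on those probes instead was an alternative added after the values were seen. Ifi27 then averaged -1.02 ± 0.25 and Ifitm3 averaged -0.71 ± 0.21 (SD, n = 14 each). Their means moved by 0.01 and the spread shrank. Such centring moves the mean of every probe with values on all 14 arrays by the same amount, so this shift tests nothing. Any change in spread is set by a probe's correlation with the array medians and by the size of the spreads, so it is no separate result. The spread also shrank for Ifi205 and Oas1a. It grew for Ifi35, Mx2, Trim25, Ifitm1, both Rsad2 probes and Bst2. Bst2 averaged -0.79 ± 0.998 (SD, n = 14), against an SD of 0.89 before.

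The remaining interferon pathway was represented by 33 other interferon-induced genes and 20 genes for ligands, receptors and signalling, from lists of 81 and 34 that were written with earlier results known. Of the 33, limma called 0 lower and 0 higher at an adjusted p below 0.05. At an unadjusted p of 0.05 it was 4 lower and 0 higher (against 2.95% and 2.41% of all genes). Of the 33 means, 23 were below 0 (69.7%, against 49.6% of all genes), with a median of -0.10. The lowest means were those of Tor3a, an ATPase of the endoplasmic reticulum, at -0.88 ± 1.71 (SD, n = 13), Ifi27l2a, a relative of Ifi27, at -0.80 ± 1.0, and Igtp, an immunity-related GTPase, at -0.63 ± 1.84. The highest were Ifitm6 at 0.37 ± 1.10, Pml, which organises nuclear bodies, at 0.26 ± 1.01, and Adar, an RNA-editing enzyme, at 0.20 ± 1.06 (SD). All 6 had spreads larger than their means. Tor3a had a median of -0.49, and its mean includes a lowest value of -6.28. The median over the 33 genes on single arrays lay between -0.36 and 0.17, against -0.94 to -0.26 for the 10 genes, which had been selected for low values.

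Among the 20 ligand, receptor and signalling genes, limma called 0 in either direction, an unadjusted p of 0.05 was passed by 1 lower and 1 higher gene (against 2.95% and 2.41% of all genes), and 16 means lay below 0 (80%, against 49.6% of all genes) with a median of -0.10. Stat2, a subunit of the ISRE-binding complex, had the lowest mean at -0.89 ± 1.48, followed by the kinase gene Ikbke at -0.44 ± 0.72 and the receptor gene Ifnar2 at -0.28 ± 0.52 (SD). The median of Stat2 was -0.66, and its mean includes a lowest value of -5.50. The DNA sensor gene Cgas had the highest mean at 0.61 ± 1.02, followed by the transcription factor genes Irf1 at 0.35 ± 0.81 and Irf3 at 0.19 ± 1.95 (SD).

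**Figure D5:**
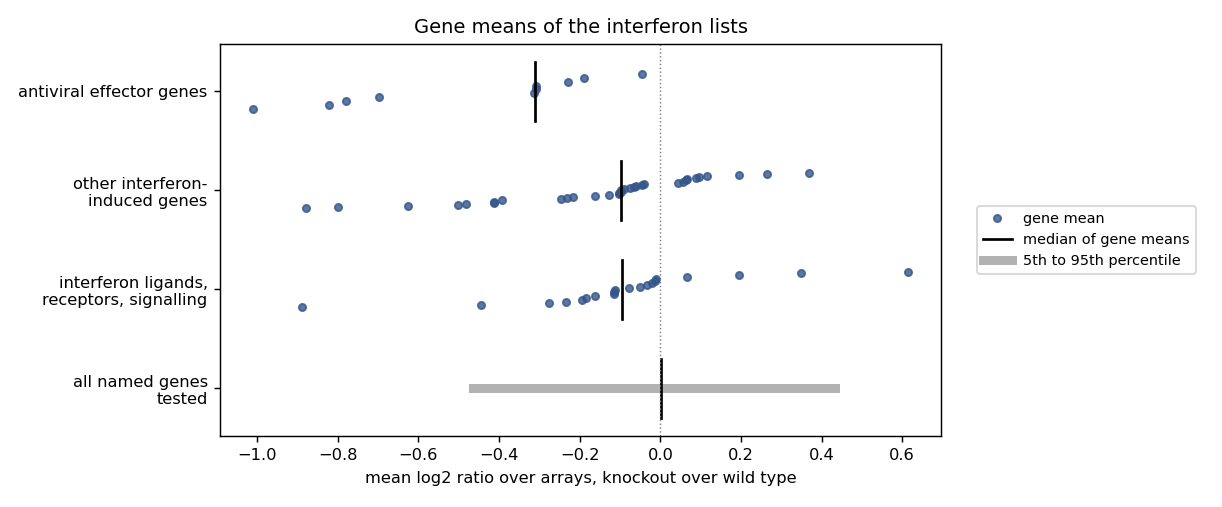
Mean log2 ratio of knockout over wild type for every tested gene of each list (points), with the list's median as a bar and, for all named genes, the median and the 5th to 95th percentile. The 10 antiviral genes have a median of -0.31, and the other interferon-induced genes and the signalling genes each have a median of -0.10.

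Markers of other cells were read beside these results. Of 14 tested macrophage and leukocyte markers limma called 1 lower, against 0.0863% of all genes. It was Lyz2 (lysozyme of macrophages), with a mean of -1.62 ± 0.96 (SD) and values below 0 on all 14 arrays. Of the 14, 10 means lay below 0 (71.4%, against 49.6% of all genes) with a median of -0.20, and the highest was Coro1a at 0.46. The median over these markers on single arrays ran from -0.92 to 0.38. Fibroblast markers (14 tested, 0 called) also had a median of -0.20, from Fbln1 at -0.66 to Pdgfra at 0.30, endothelial markers (6 tested, 0 called) had a median of 0.20, and epithelial markers (8 tested, 0 called) had one of -0.08. Whether any other cell type had a part in the interferon gene ratios was not tested. Arrays gave between 13165 and 19615 usable values, and replicates 1 and 2 had the most missing ones, with 5805 and 6875.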

How the data were processed

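For each of 14 arrays the authors deposited a log2 ratio per probe (20355 probes), made from Cy3- and Cy5-labelled cDNA per the labels' protocols. The log base was read from the values. Scanner, background correction and any normalization before deposit: not given in the sources used here. Extremes beyond 12 log2 units, 91 to 315 per array, were set to missing, and each array was centred on its median. Gene names came from the platform annotation, updated through gene identifiers. Probes with 10 or more values, and 4 or more of each orientation, were tested with limma 3.58.1 in R 4.3.3 (intercept and dye term, lmFit and eBayes, Benjamini-Hochberg over all probes, threshold 0.05). The fit was run on simulated data with independent noise for each array. That check cannot speak to p-values where arrays are correlated. A ratio does not give the spread of the wild-type RNA on its own, and whether 1 wild-type RNA served all arrays was not known. The 10 genes and all lists were chosen with earlier results of these data known. Named were all probes of the 10 genes, called genes of the other lists with their 3 lowest and 3 highest means, called, lowest or highest markers, and the 8 probes most alike. Alternatives covered centring, coded extremes, direction, filters, blocking, moderation and left-out arrays.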

Additional observations from a re-analysis of the deposited data

How the results depend on the processing

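Turning the Cy3 arrays, the reading the labels cannot settle, reversed the means of the 3 genes below 0 on every array: Ifi27 to 0.12, Ifi205 to 0.14 and Ifitm3 to 0.16, with a median over the 10 gene means of 0.11, 0 of the 11 probes called, 1 of all probes called and 6 by the dye term. By construction this exchanges the mean and the dye term. With a random block for number range within dye, 1 of the 11 probes was called (Ifi27), 4 of all probes and 0 by the dye term. Robust and trended moderation called 0 of the 11, 0 of all probes and 0 by the dye term. Of all probes, 11 were called with values required on all 14 arrays (fewer probes tested, 0 by the dye term) and 10 with centring on well measured probes. The dye term called 4 with probes averaged per gene and 2 without replicates 1 and 2. Leaving out single arrays, 1 to 3 of the 11 probes were called, 4 to 9 of all probes, 0 to 3 of all probes by the dye term and 0 of the 11 by number range, and the median over the 10 gene means ran from -0.38 to -0.29. Ifi27 was called in all 14 such fits. Ifi205 was lost without replicates 3, 4, 6, 7, 8, 9 or 13, Bst2 was gained without replicate 11 (limma adjusted p 0.0495, range over single arrays 0.0495 to 0.933) and Ifitm3 without replicate 2 (0.0283, range 0.0283 to 0.152). The causes were not tested. Means as deposited, medians over arrays, kept extremes, either orientation alone and equal weight for number ranges kept the direction of Ifi27, Ifi205 and Ifitm3. Every centred value of these genes lay below 0, so apart from the means as deposited this outcome was fixed and tests nothing. With equal weight for number ranges, Oas1a moved from -0.19 to 0.02 and Rsad2 from -0.04 to 0.02. The other gene means stayed below 0. No paired analysis was possible because there is 1 group and each array already pairs knockout with wild type. Ratios carry no intensity, so what dim spots limit could be judged only from ratios of small whole numbers, which made up 5 of 13 values of Rsad2 probe 3904, 3 of 13 of Mx2 and of Ifitm1, and 0 of Ifi27, Ifitm3 and Bst2.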

Other observations

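Among the other interferon-induced genes, Lgals9, which encodes the lectin galectin-9 and was singled out after its values were seen, was below 0 on 14 of 14 arrays, with a mean of -0.41 ± 0.33 (SD, n = 14) and a limma adjusted p of 0.581. Over all named genes limma called 8 lower and 0 higher with probes averaged per gene. Beside Ifi27, Ifi205 and Ifitm3 these were the class I histocompatibility gene H2-K1, the immunoproteasome subunit gene Psmb8, the lipoprotein lipase gene Lpl, the macrophage lysozyme gene Lyz2 and the collagenase gene Mmp13, and these were named after their values were seen.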
